A study of Mus musculus with 13 samples.

Results

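The 7 genes described here encode the core of MHC class II antigen presentation. They are the classical chains H2-Aa, H2-Ab1 and H2-Eb1, the invariant chain Cd74, the peptide editor subunits H2-DMa and H2-DMb1, and the transactivator Ciita. They were taken by symbol, through their Ensembl identifiers, from 49315 genes in the deposited count table, and all 7 were found and passed the filter on low counts that kept 16496 genes. The table holds 13 RNA-seq libraries of mouse skeletal muscle, made after polyA selection. Flox animals carry miR-181a2b2flox/flox, a floxed microRNA locus with no Cre named in the labels, and are titled WT. KO animals carry the systemic deletion miR-181a2b2-/-. Each genotype was fed CHOW or HFSC, a diet name that the labels do not spell out, which gives 4 groups: flox on chow with 3 libraries, KO on chow with 3, flox on HFSC with 4 and KO on HFSC with 3. The labels give no age, sex or strain. Hindlimb ischemia is mentioned for the series without saying which samples it touches, and the extraction protocol names white adipose tissue where the source label says skeletal muscle.

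MHC class II molecules are αβ heterodimers that carry peptides from endocytosed proteins to the cell surface for recognition by CD4+ T cells. The chains assemble in the endoplasmic reticulum with the invariant chain, which blocks the groove and directs the complex to endosomes. There proteases degrade the invariant chain, and the H2-DM heterodimer exchanges the remaining fragment for peptide. Dendritic cells, B cells and macrophages express the genes constitutively or on activation, other cell types can be induced to do so by interferon gamma, and skeletal muscle fibres express little of them at rest. CIITA does not bind DNA itself but is recruited to an enhanceosome of RFX, CREB and NF-Y on the X and Y boxes of class II promoters.

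The targeted locus could hardly be read in polyA-selected RNA. Mir181a-2 (GRCm38 chromosome 2, 38852735 to 38852810) had at most 2 reads in a flox library and 0 in all 6 KO libraries, and Mir181b-2 had 0 in all 13, so neither checks the genotype labels. Totals ran from 20830943 to 45710227 counts, and 3 counts, the limit for a gene with no read, correspond to between 0.0633 and 0.152 CPM, the read count relative to a common library size, here with TMM scaling factors. The 6 skeletal muscle markers summed to 92602, 68618 and 155994 CPM in chow flox replicates 2, 3 and 4, 126184 to 169293 CPM in chow KO, 106980 to 139152 CPM in HFSC flox and 100967 to 124809 CPM in HFSC KO. On chow this sum was thus lowest in the 2 flox libraries with the most class II RNA, and replicate 4 lay in the KO range. Among the 3 chow flox libraries, replicate 4 stood apart in every class II gene, close to the chow KO libraries, so fold changes of the 7 genes that use chow flox, and counts over other lists on chow, are also given without it. Replicate 4 was picked from these class II values, so leaving it out widens the gap between flox and KO on chow by that choice. Results without it describe its weight and are no further support. Calls over all genes in that contrast ran from 0 to 7261 when a library was left out. Counts over lists without a library stand here without the share of all genes called in the same fit. They are therefore not results about the lists. The labels do not state that each sample is a separate animal, and the p-values therefore cover only the spread among these libraries, part of which can be technical.

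Promoter sequence was read because the 7 genes share a transactivator that acts through named promoter boxes. RefSeq promoters (GRCm38.p6) were read for 4 of the 7 genes, H2-Aa, H2-Eb1, H2-DMa and H2-DMb1. No promoter of H2-Ab1, Cd74 or Ciita was searched, which does not show that RefSeq lacks one. The 250 bases before each RefSeq start were searched on both strands. The patterns were the Y box core TGATTGG, the X1 box core AACNGATG and TGACGTCA, the full cyclic AMP response element (CRE) bound by CREB. For H2-DMa and H2-DMb1 the RefSeq starts lie inside the gene spans given below. The pattern letters were chosen knowing class II promoters, so the matches describe the genes and test nothing. In the lines that follow capitals mark these matches, the sequences run 5′ to 3′ on the strand of the gene, and H2-Ob, the β chain of the DM inhibitor H2-DO, is added as a class II gene in which the Y box core alone was matched. H2-Aa is at chr17:34287857-34287933 on the minus strand, H2-Eb1 at chr17:34305746-34305822 and H2-Ob at chr17:34238786-34238862, both on the plus strand.
H2-Aa: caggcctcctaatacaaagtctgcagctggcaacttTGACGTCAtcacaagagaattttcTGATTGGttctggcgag
H2-Eb1: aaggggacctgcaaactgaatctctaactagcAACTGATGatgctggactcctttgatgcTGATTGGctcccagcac
H2-Ob: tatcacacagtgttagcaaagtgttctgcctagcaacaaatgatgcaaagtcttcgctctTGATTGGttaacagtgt
These windows overlap no annotated exon, and that of H2-Eb1 lies within the span of the antisense gene Gm20513.

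The Y box core lay 50 bases before the RefSeq start of H2-Aa, 61 before that of H2-Eb1 and 63 before that of H2-DMb1. Upstream of it the X1 box core was matched in H2-Eb1, 89 bases before the start, and in H2-DMb1, 92 bases before it, whereas H2-Aa held the CRE, 74 bases before the start. No match of the 3 patterns was found in either of the 2 promoters listed for H2-DMa, which says only that these letters are not in those windows. The same holds for the X1 box core in H2-Aa and H2-Ob, because only exact matches were searched. It does not show that they lack an X box. Of 32851 promoters searched over the same length, 7.23% held the Y box core, 1.98% the X1 box core, 1.55% the CRE and 0.271% the Y box core together with either of the others.

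H2-Aa (ENSMUSG00000036594, chromosome 17, 34282744 to 34287823, minus strand) encodes the α chain of the I-A molecule. Its levels were 55.9, 60.3 and 15.4 CPM in chow flox replicates 2, 3 and 4, and 11.2, 9.11 and 6.68 CPM in chow KO replicates 1, 2 and 3. On HFSC they were 37.5, 50.6, 51.4 and 47.0 CPM in flox replicates 1 to 4, and 53.2, 44.3 and 53.9 CPM in KO replicates 2, 3 and 4. The chow KO libraries lay below all others, chow flox replicate 4 lay just above them, and chow flox replicates 2 and 3 were the highest, above all 7 HFSC libraries, among which flox and KO overlapped.

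H2-Ab1 (ENSMUSG00000073421, chromosome 17, 34257689 to 34269419, plus strand) encodes the β chain that pairs with H2-Aa. It stood at 54.9, 60.8 and 13.5 CPM in chow flox and at 12.3, 8.91 and 6.81 CPM in chow KO, in the replicate order above. The HFSC flox libraries held 36.8, 46.9, 46.2 and 43.4 CPM and the HFSC KO libraries 43.5, 45.8 and 43.1 CPM. Chow flox replicate 4 lay next to the chow KO libraries in this gene too, and the HFSC KO libraries fell inside the HFSC flox range.

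H2-Eb1 (ENSMUSG00000060586, chromosome 17, 34305867 to 34316674, plus strand) encodes the β chain of the I-E molecule. Chow flox had 52.7, 62.4 and 15.8 CPM and chow KO 12.7, 9.63 and 6.68 CPM. HFSC flox had 33.5, 44.3, 47.3 and 41.6 CPM and HFSC KO 42.4, 44.1 and 44.0 CPM. Chow KO was again below all other libraries, and the other 3 groups overlapped. H2-Ea-ps, the locus of its α chain partner, had 0 reads in all 13 libraries, which allows at most 0.152 CPM in the shallowest of them.

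**Figure D1:**
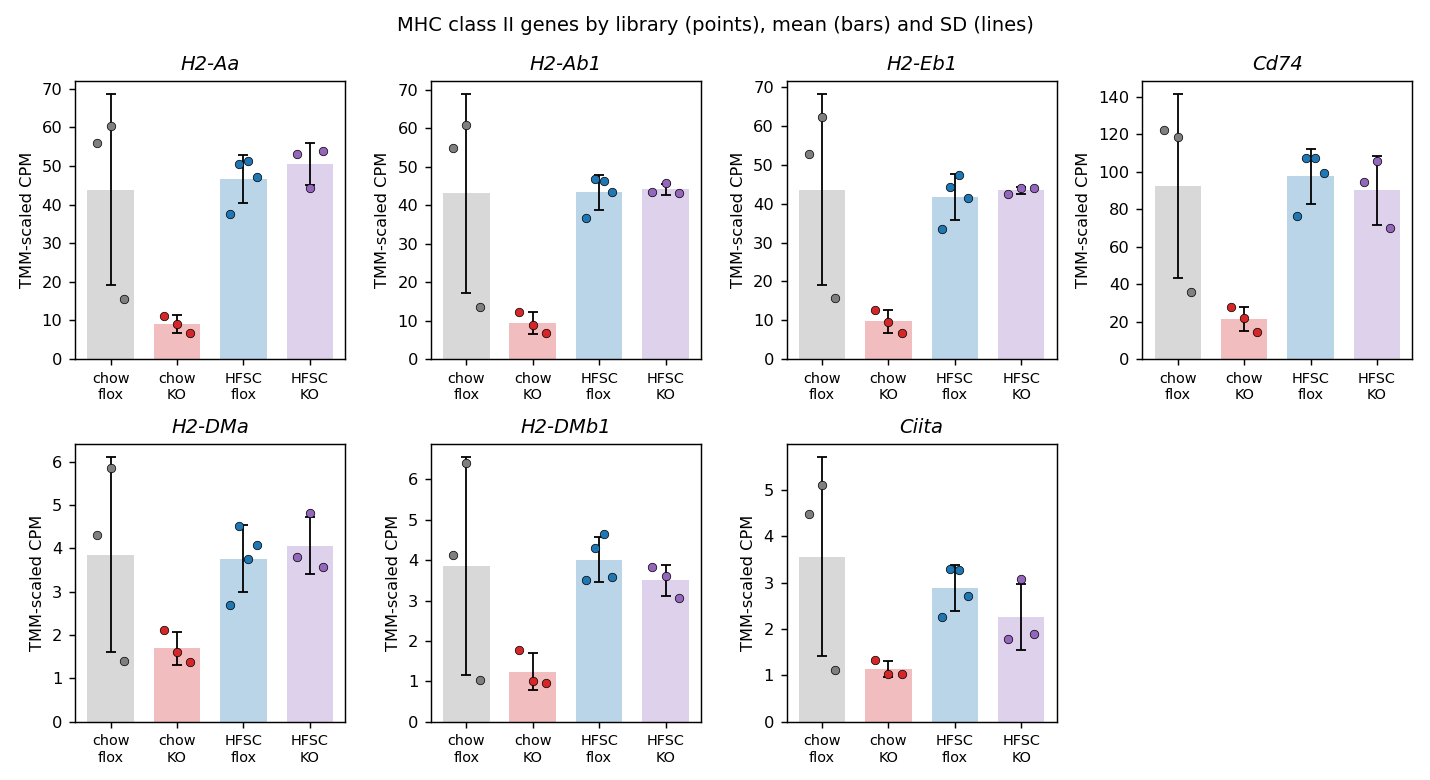
Levels of the 7 class II genes in TMM-scaled CPM (y axis, from 0) by group (x axis), with points for libraries, bars for group means and lines for the SD (n = 3, 3, 4 and 3). In all 7 panels the chow KO libraries are low and 1 of the 3 chow flox libraries sits with or just above them, while the HFSC groups overlap.

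Cd74 (ENSMUSG00000024610, chromosome 18, 60803848 to 60812652, plus strand), the invariant chain, is also the receptor of the cytokine MIF. It had 122.3, 118.7 and 35.5 CPM in chow flox and 27.6, 21.9 and 14.5 CPM in chow KO. On HFSC the levels were 76.2, 107.4, 107.0 and 99.3 CPM in flox and 94.3, 105.8 and 69.9 CPM in KO. The chow KO libraries were again the lowest, and HFSC KO spread more widely than in the chains, with replicate 4 below the HFSC flox range.

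H2-DMa (ENSMUSG00000037649, chromosome 17, 34119541 to 34139101, plus strand) encodes the α subunit of the peptide editor. Its levels were 4.31, 5.85 and 1.41 CPM in chow flox, 2.11, 1.60 and 1.38 CPM in chow KO, 2.70, 4.51, 3.76 and 4.07 CPM in HFSC flox and 3.79, 4.82 and 3.57 CPM in HFSC KO. Here chow flox replicate 4 lay inside the chow KO range. The gene overlaps Brd2 on the opposite strand, which was at 91.9 to 133 CPM, and with the strand setting of the counting not given, reads over the overlap cannot be assigned.

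H2-DMb1 (ENSMUSG00000079547, chromosome 17, 34153072 to 34160230, plus strand) encodes the β subunit. It had 4.13, 6.41 and 1.03 CPM in chow flox, 1.77, 0.999 and 0.948 CPM in chow KO, 3.51, 4.31, 4.64 and 3.59 CPM in HFSC flox and 3.83, 3.61 and 3.07 CPM in HFSC KO. Chow flox replicate 4 was inside the chow KO range in this subunit as well. Its near-identical copy H2-DMb2, with 0.129 to 0.721 CPM, may share reads with it. Summing both into 1 row left the calls described below as they were.

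Ciita (ENSMUSG00000022504, chromosome 16, 10480059 to 10528418, plus strand), the transactivator, was at 4.48, 5.10 and 1.11 CPM in chow flox and at 1.33, 1.04 and 1.03 CPM in chow KO, so that chow flox replicate 4 lay inside the KO range. It was at 2.26, 3.29, 3.27 and 2.70 CPM in HFSC flox and at 1.79, 3.08 and 1.89 CPM in HFSC KO. The HFSC KO libraries lay above all chow KO libraries, but replicates 2 and 4 of that group were below the lowest HFSC flox library. Ciita overlaps Dexi on the opposite strand, whose levels ran the other way on chow, at 16.6 to 23.4 CPM in flox and 26.6 to 27.7 CPM in KO. The lowest read counts behind these values were 24 for Ciita, 22 for H2-DMb1 and 32 for H2-DMa, all in chow KO replicate 3, against 155 or more for the chains and Cd74.

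Per kilobase of exon, the mean level in chow flox fell from 54.9 CPM for Cd74 to 22.4 for H2-Eb1, 16.8 for H2-Ab1 and 11.5 for H2-Aa. H2-DMb1 followed at 2.29, H2-DMa at 1.12 and Ciita at 0.374 CPM per kilobase. The same order of means held in the other 3 groups. Chow KO replicate 3 was the lowest library for all 7 genes, and chow flox replicate 3 the highest for all but Cd74, where replicate 2 was. The highest library exceeded the lowest 9.34-fold in H2-Eb1, 9.02-fold in H2-Aa, 8.93-fold in H2-Ab1 and 8.42-fold in Cd74. The range was narrower in H2-DMb1 (6.76-fold), Ciita (4.93-fold) and H2-DMa (4.24-fold).

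Loss of miR-181a2b2 on chow was the first comparison. The antigen-presenting chains and Cd74 were lower in KO than in flox: the log2 fold change was -2.28 ± 0.39 (SE, adjusted p = 0.0154) for H2-Aa, -2.20 ± 0.41 (adjusted p = 0.0162) for H2-Ab1, -2.17 ± 0.39 (adjusted p = 0.0154) for H2-Eb1 and -2.11 ± 0.38 (adjusted p = 0.0159) for Cd74, each with 3 libraries a group. In Ciita the fold change was -1.65 ± 0.44 (adjusted p = 0.0346) and in H2-DMb1 -1.63 ± 0.48 (adjusted p = 0.045). H2-DMa had a log2 fold change of -1.19 ± 0.40 and did not pass (adjusted p = 0.0694). Over the alternative fits of this contrast the call was lost in 15 of 21 for H2-DMb1, in 8 of 20 for Ciita and in 5 of 20 for each chain and Cd74. Thus 6 of the 7 genes were called lower, where 10.1% of all tested genes were, and the median over the 7 was -2.11 against -0.01 over all tested genes. In bulk RNA, fewer cells of a type and less RNA per cell cannot be told apart.

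The libraries of chow flox and chow KO did not overlap in H2-Aa, H2-Ab1, H2-Eb1 and Cd74, while 13.9% of tested genes did not overlap in that direction. In Ciita, H2-DMa and H2-DMb1 they overlapped through chow flox replicate 4. Without that library all 7 genes were called lower, with log2 fold changes of -2.68 in H2-Aa and -1.57 in H2-DMa, the furthest from 0 and the nearest to it. Over the fits that each leave out a library, 0 to 7261 of all tested genes were called in this contrast, in either direction. Without replicate 3 of chow flox, or without replicate 2 or 3 of chow KO, 0 of the 7 were called, and H2-Aa was then at -2.02 (adjusted p = 0.061), -2.29 (adjusted p = 0.0804) and -2.11 (adjusted p = 0.109). With only the chow libraries in the fit, 0 of the 7 passed as well, and H2-Aa was at -2.33 (adjusted p = 0.191).

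The diet comparison within KO animals showed the opposite direction and uses the same chow KO libraries. H2-Aa was higher on HFSC than on chow by 2.48 ± 0.39 on the log2 scale (SE, adjusted p = 0.0027). H2-Ab1 rose by 2.23 ± 0.41 (adjusted p = 0.00458), H2-Eb1 by 2.16 ± 0.39 (adjusted p = 0.0041) and Cd74 by 2.07 ± 0.38 (adjusted p = 0.00471). The peptide editor subunits had smaller fold changes, with H2-DMb1 higher by 1.48 ± 0.48 (adjusted p = 0.04) and H2-DMa by 1.25 ± 0.40 (adjusted p = 0.0381). Ciita had a log2 fold change of 0.99 ± 0.45 and did not pass (adjusted p = 0.117). These 6 of 7 calls compare with 14.9% of tested genes called higher, and the median of 2.07 over the 7 genes with 0.02 over all tested genes.

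All 7 genes were higher in every HFSC KO library than in every chow KO library, as were 26.8% of tested genes. H2-Aa, H2-Ab1, H2-Eb1 and Cd74 were called in all 20 alternative fits of this contrast, including each fit without a library. H2-DMa was not called in 8 of its 20 alternatives and H2-DMb1 in 12 of its 21. Ciita was called when only the KO libraries were fitted (log2 fold change 0.98) and without chow flox replicate 4 (0.98, adjusted p = 0.0102).

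**Figure D2:**
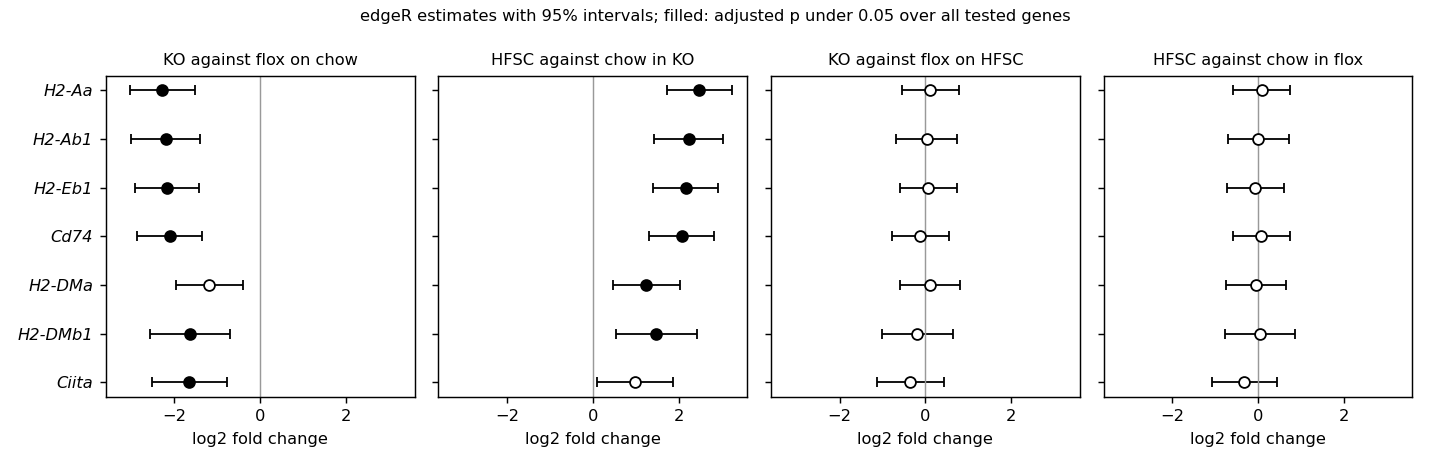
Log2 fold changes (x axis) of the 7 class II genes (rows) in 4 comparisons, with lines for approximate 95% intervals from the edgeR estimate and its SE and filled points for adjusted p under 0.05 over all tested genes. The KO genotype on chow and the HFSC diet in KO lie on opposite sides of 0 and share the chow KO libraries, while the intervals of the other comparisons span 0.

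On HFSC, KO and flox muscle were compared next. H2-Aa was at 0.11 ± 0.34 on the log2 scale (adjusted p = 0.945) and H2-Ab1 at 0.03 ± 0.36 (adjusted p = 0.988, 95% interval -0.68 to 0.73). Cd74 was at -0.12 ± 0.34 (adjusted p = 0.945) and Ciita at -0.35 ± 0.40 (adjusted p = 0.824, 95% interval -1.13 to 0.44). The groups overlapped in all 7 genes, where KO lay wholly above flox in 7.4% and wholly below it in 5.31% of tested genes. With these libraries 0 of the 7 passed with edgeR, DESeq2 or limma, 0 of them at an unadjusted p under 0.05. Of all tested genes 0.0182% were called here. A difference within these intervals was not detectable with these libraries.

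In flox animals the diet contrast gave log2 fold changes between -0.32 (Ciita, ± 0.39, adjusted p = 0.785) and 0.09 (H2-Aa, ± 0.34, adjusted p = 0.946). None of the 7 was called with edgeR or DESeq2, 0 of them had an unadjusted p under 0.05, and 0.418% of all tested genes were called. The flox groups overlapped in each gene, where 4.26% of tested genes were wholly higher on HFSC and 5.6% wholly lower, and the spread within chow flox was wide: H2-Aa had 43.9 ± 24.7 CPM (SD, n = 3) there against 46.6 ± 6.34 CPM (SD, n = 4) in HFSC flox. The sign of these small differences depended on chow flox replicates. Without replicate 4 all 7 were negative, with H2-Aa at -0.32 and Ciita at -0.73 (adjusted p = 0.0691), and limma voom called Ciita alone, at -0.67 (adjusted p = 0.0239).

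Whether the genotype difference itself depended on diet was tested by the interaction term, positive where KO relative to flox was higher on HFSC than on chow. It was 2.40 ± 0.50 for H2-Aa (adjusted p = 0.0625), 2.23 ± 0.51 for H2-Eb1 (adjusted p = 0.0625), 2.23 ± 0.54 for H2-Ab1 (adjusted p = 0.0665) and 1.995 ± 0.51 for Cd74 (adjusted p = 0.071). H2-DMb1 was at 1.44, Ciita at 1.31 and H2-DMa at 1.30, with adjusted p of 0.156, 0.165 and 0.139. With edgeR 0 of the 7 passed, as did 0% of tested genes, although all 7 had an unadjusted p under 0.05, as had 4811 of all tested genes. DESeq2 called 4 of the 7 and limma voom 7, and both also called far more of all genes than edgeR here, with the counts in the closing section. Without chow flox replicate 4, picked from these same values, edgeR called all 7, with H2-Aa at 2.80 (adjusted p = 0.000136). Over the fits that each leave out a library, 0 to 5928 of all tested genes were called for the interaction.

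The proportions of the genes to each other were examined as the ratio of each gene to H2-Ab1 per kilobase within a library, where scaling between libraries cancels. H2-Aa ran from 0.615 to 0.846 of H2-Ab1 and H2-Eb1 from 1.20 to 1.55 over the 13 libraries. Cd74 was at 2.48 to 4.03 times H2-Ab1. The group ranges of these ratios overlapped in every one of the 4 comparisons.

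The ratios of the editor and the transactivator were highest in chow KO. H2-Ab1 itself was at percentile 3.49 of all tested genes by log2 fold change for KO against flox on chow. Any gene that fell less than H2-Ab1 there has a higher ratio in KO. The share of all genes with such ratios was not computed, so they are no trait of these genes alone. H2-DMa was 0.128, 0.134 and 0.151 of H2-Ab1 in the chow KO libraries and 0.0547 to 0.0783 in the other 10 libraries. H2-DMb1 was 0.171 to 0.219 of H2-Ab1 in chow KO and 0.109 to 0.161 elsewhere. Ciita was 0.0290 to 0.0409 of H2-Ab1 in chow KO, 0.0220 to 0.0226 in chow flox, 0.0166 to 0.0191 in HFSC flox and 0.0111 to 0.0181 in HFSC KO. Chow flox replicate 4, low in all 7 genes, had ratios of 0.0778 for H2-DMa, 0.117 for H2-DMb1 and 0.0221 for Ciita, inside the range of the other 9 libraries outside chow KO.

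On chow the ratio to H2-Ab1 was 1.99-fold higher in KO than in flox for H2-DMa, 1.547-fold for H2-DMb1 and 1.504-fold for Ciita, without overlap between the groups. Without chow flox replicate 4 these were 2.12-fold, 1.47-fold and 1.499-fold, again without overlap. In KO animals the HFSC ratios were 0.496, 0.604 and 0.399 times the chow ratios, again without overlap and against the same chow KO libraries. Of 24 such tests, chosen after the data had been seen, each of these 6 gave p = 0.1 in the two-sided exact permutation test, the smallest that 3 against 3 libraries allow, with adjusted p = 0.305. For Ciita in flox animals the HFSC ratio was 0.801 times the chow ratio (exact permutation p = 0.0571, the smallest for 4 against 3, adjusted p = 0.305), so no ratio passed. Brd2, which overlaps H2-DMa, was at 102 to 111 CPM in chow flox and 96.3 to 110 CPM in chow KO. On HFSC it was at 91.95 to 119.7 CPM in flox and 93.96 to 132.7 CPM in KO. Dexi, which overlaps Ciita, was at 16.6 to 23.4 CPM in chow flox and 26.6 to 27.7 CPM in chow KO, where the Ciita ratios were highest. On HFSC Dexi was at 22.5 to 27.6 CPM in flox and 24.1 to 27.7 CPM in KO. The part of the overlapping genes in the ratios was not tested.

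**Figure D3:**
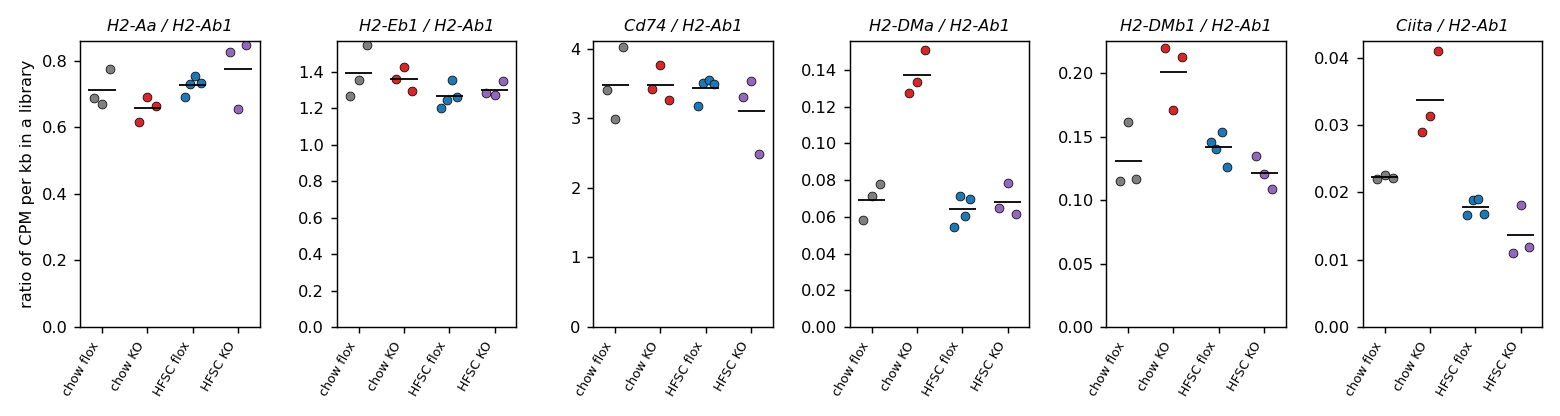
Ratio of 6 class II genes to H2-Ab1 (y axes, CPM per kilobase over CPM per kilobase within a library, from 0) by group (x axis), with points for libraries and lines for group means. H2-Aa, H2-Eb1 and Cd74 overlap between groups, whereas the chow KO libraries are the highest for H2-DMa (0.128 to 0.151), H2-DMb1 (0.171 to 0.219) and Ciita (0.0290 to 0.0409).

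Other genes of the class II pathway were read from a list of 20, of which 17 could be tested. On chow 6 of the 17 were lower in KO and 0 higher, where 10.1% of all tested genes were called lower, with a median log2 fold change of -0.66. The count was 8 of the 17 without chow flox replicate 4, with the share of all genes called in that fit not given. Without chow flox replicate 3, or without replicate 2 or 3 of chow KO, no gene was called lower on chow in this list or in any of the lists described below. Among them were the protease cathepsin S (Ctss), which cuts the invariant chain, at -4.01 ± 0.79 (adjusted p = 0.0178), and the ubiquitin ligase March1, which removes class II from the surface, at -2.48 ± 0.49 (adjusted p = 0.0179). Ifi30, the lysosomal thiol reductase, fell by 2.005 ± 0.43 (log2, adjusted p = 0.0196), legumain (Lgmn) by 1.47 ± 0.30 (adjusted p = 0.0181), H2-Ob by 1.87 ± 0.55 (adjusted p = 0.045) and cathepsin B (Ctsb) by 0.81 ± 0.24 (adjusted p = 0.0483). Ctss varied widely within chow flox, at 59.6, 169 and 8.77 CPM against 7.23, 4.20 and 3.23 CPM in chow KO, so that chow flox replicate 4 again lay nearest to KO.

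In KO animals 4 of the 17 were higher on HFSC and 0 lower, with a median of 0.23, where 14.9% of all tested genes were called higher. When a library was left out, 1 to 7 of the 17 were called higher. The 4 called with all libraries are given next. These were March1 (2.31 ± 0.50, adjusted p = 0.0086), H2-Ob (1.92 ± 0.55, adjusted p = 0.026), Ctss (2.23 ± 0.75, adjusted p = 0.0454) and Lgmn (0.85 ± 0.29, adjusted p = 0.0499). H2-DMb2 was at -0.78 ± 0.51 for KO on chow (adjusted p = 0.291) and 1.12 ± 0.51 for HFSC in KO (adjusted p = 0.119). In each of the other contrasts of a pair of groups 0 of the 17 passed and 1 had an unadjusted p under 0.05.

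The factors that bind class II promoters were not called. Of Rfx5, Rfxap, Rfxank, Nfya, Nfyb, Nfyc and Creb1, 0 of 7 passed in any contrast with edgeR on all libraries, and on chow 1 of them had an unadjusted p under 0.05. The smallest p on chow belonged to Nfya, at -0.66 ± 0.25 (adjusted p = 0.0994), and to Nfyb, at 0.33 ± 0.17 (adjusted p = 0.174). The summed level of the 7 factors was 126 to 133 CPM in chow flox and 123 to 131 CPM in chow KO. This sum hides members that moved in opposite directions without overlap. Creb1 was at 27.4 to 28.3 CPM in chow flox and 22.5 to 25.6 CPM in chow KO. Nfyb was at 21.9 to 27.1 CPM in chow flox and 28.3 to 33.6 CPM in chow KO. Of all tested genes 13.9% lay wholly lower in chow KO. Nfya was called lower in KO on chow, at -0.93 (adjusted p = 0.00145), when chow flox replicate 4 was left out.

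Interferon gamma is the classical inducer of Ciita. Ifng itself had at most 2 reads in a library and was not tested. Of the 6 tested genes of its signal, Ifngr1, a chain of its receptor, was lower in KO on chow (-0.63 ± 0.17, adjusted p = 0.0312) and higher on HFSC in KO (1.37 ± 0.17, adjusted p = 0.000911). Jak2 (-1.23 ± 0.28, adjusted p = 0.0102) and Ifngr2 (-0.54 ± 0.16, adjusted p = 0.0272) were lower on HFSC in KO, opposite to the class II genes. Irf1, at -0.86 ± 0.33, did not pass on chow (adjusted p = 0.1). Without chow flox replicate 4, 3 of the 6 were called lower in KO on chow and 3 higher. The costimulatory genes Cd40, Cd80 and Cd86, whose products give T cells the second signal beside class II, were all lower in KO on chow (3 of 3, and 0 to 3 without a library), and Cd40 alone passed for HFSC in KO, at 1.58 ± 0.39 (adjusted p = 0.014).

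The MHC class I pathway, which nearly all nucleated cells use, had the same direction. On chow 7 of its 9 genes were lower in KO, and 9 without chow flox replicate 4 but 0 to 4 without any other library, with a median of -1.14 against -2.11 for the class II genes, and in KO animals 2 of 9, H2-D1 (1.08 ± 0.31, adjusted p = 0.0257) and B2m (0.89 ± 0.27, adjusted p = 0.0298), were higher on HFSC. Of all tested genes 10.1% were called lower in KO on chow and 14.9% higher on HFSC in KO, and the 2 of 9 lie near the latter share. On HFSC in KO, 0 to 6 of the 9 were called higher when a library was left out. The summed level of the 7 class II genes was 0.147 to 0.225 of the class I sum in chow KO and 0.304 to 0.532 in chow flox. On HFSC it was 0.485 to 0.560 in flox and 0.438 to 0.559 in KO. The chow KO libraries were therefore the lowest in this ratio too, a description for which no test was made.

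Among markers of cells that carry class II, 8 of 8 for macrophages, 2 of 8 for dendritic cells and 1 of 4 for B cells were called lower in KO on chow. Of all tested genes 10.1% were. The 7 genes summed to 83.8, 299 and 319 CPM in chow flox (lowest, median and highest), 38.0 to 69.1 CPM in chow KO, 192 to 264 CPM in HFSC flox and 220 to 251 CPM in HFSC KO. All 8 macrophage markers were lower in KO on chow (median -2.71, with Csf1r at -2.41 ± 0.40, adjusted p = 0.0154), and 7 of 8 were higher on HFSC in KO (median 1.90). Their sum was 59.0 to 328 CPM in chow flox, 23.6 to 39.2 CPM in chow KO, 119 to 168 CPM in HFSC flox and 121 to 140 CPM in HFSC KO. Over these marker sums the class II sum was at 0.975 to 1.61 in chow flox, 1.54 to 1.76 in chow KO, 1.54 to 2.22 in HFSC flox and 1.56 to 2.07 in HFSC KO, so all group ranges overlapped.

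Pan-leukocyte markers were read in the same way. Ptprc, which encodes CD45, was at 16.1, 38.2 and 3.28 CPM in chow flox and 1.80 to 4.13 CPM in chow KO, with a log2 fold change of -2.89 ± 0.63 (adjusted p = 0.0196). All 3 pan-leukocyte markers were lower in KO on chow and 2 of 3 higher on HFSC in KO, where Ptprc was at 1.78 ± 0.62 (adjusted p = 0.0506). Without any single library of chow KO or HFSC KO, 0 of the 3 markers were called on HFSC in KO. Their sum was 12.9 to 117 CPM in chow flox, 5.82 to 12.3 CPM in chow KO, 29.5 to 43.6 CPM in HFSC flox and 27.9 to 34.0 CPM in HFSC KO. Relative to it, the class II sum ranged from 5.63 to 6.54 among the chow KO libraries, from 5.99 to 7.19 in HFSC flox and from 7.41 to 8.70 in HFSC KO. In chow flox it was 6.22 and 6.51 in replicates 2 and 4 but 2.74 in replicate 3, the library with the most Ptprc.

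Fewer dendritic cell markers passed, where 10.1% of all tested genes were called lower in KO on chow and 14.9% higher on HFSC in KO. On chow 2 of 8 were lower in KO, and 5 without chow flox replicate 4. The 2 were Itgax, the gene of CD11c (-4.16 ± 0.77, adjusted p = 0.016), and Batf3 (-1.90 ± 0.47, adjusted p = 0.0275). On HFSC in KO 2 of 8 were higher (1 to 3 without a library), Xcr1, a receptor of cross-presenting cells (2.497 ± 0.41, adjusted p = 0.00295), and Itgax (2.28 ± 0.76, adjusted p = 0.045). Their sum was 11.01 to 29.8 CPM in chow flox, 10.1 to 11.9 CPM in chow KO, 15.7 to 19.95 CPM in HFSC flox and 15.7 to 21.8 CPM in HFSC KO. The class II sum over it was 3.396 to 5.81 in chow KO and 7.61 to 16.8 in the other 10 libraries. That ratio rests on Zbtb46, which was level on chow, at 7.93 to 9.67 CPM in flox and 7.91 to 9.87 CPM in KO. The other 7 markers summed to 3.09 to 20.5 CPM in chow flox and 1.34 to 3.55 CPM in chow KO. Over those 7 the class II sum was 15.6 to 27.1 in chow flox and 19.5 to 28.5 in chow KO, which overlap, against 22.9 to 35.7 in HFSC flox and 32.0 to 36.7 in HFSC KO. Flt3 had 0 reads in chow KO replicate 3 and Ccr7 0 in chow KO replicate 2.

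B cell markers were scarce, at 0.345 to 0.853 CPM in sum in chow KO, 0.610 to 5.18 CPM in chow flox, 1.32 to 2.91 CPM in HFSC flox and 1.21 to 1.61 CPM in HFSC KO. The defining gene Ms4a1, which encodes CD20, had at most 9 reads in a library and 0 in chow KO replicates 1 and 3. Of 4 B cell markers tested, Cd22 alone was lower in KO on chow (-3.36 ± 0.89, adjusted p = 0.0337), and 3 were without chow flox replicate 4, and none was higher on HFSC in KO, where 0 had an unadjusted p under 0.05. T cell markers summed to 1.26 to 9.29 CPM in chow flox, 1.23 to 1.34 CPM in chow KO, 4.50 to 5.20 CPM in HFSC flox and 2.65 to 4.72 CPM in HFSC KO. Of these, 5 of 6 were lower in KO on chow (0 to 3 without a library other than chow flox replicate 4) and 3 of 6 higher on HFSC in KO (0 to 5 without a library). Cd3g had 0 reads in chow KO replicates 2 and 3 and in chow flox replicate 4. Over all tested genes, 10.1% were called lower in KO on chow and 14.9% higher on HFSC in KO.

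Markers of stromal cells moved in these contrasts as well, where 10.1% of all tested genes were called lower in KO on chow and 14.9% higher on HFSC in KO. All 5 fibroblast markers were lower in KO on chow and higher on HFSC in KO, with sums of 1115 to 6102 CPM in chow flox, 348 to 545 CPM in chow KO, 2693 to 3907 CPM in HFSC flox and 2251 to 2754 CPM in HFSC KO. Of 4 endothelial markers, 2 were lower in KO on chow and 4 higher on HFSC in KO, with sums of 170 to 315, 148 to 175, 269 to 423 and 365 to 409 CPM in that order of groups. Adipocyte markers passed in 0 of 4 on chow, 0 of them at an unadjusted p under 0.05, and were higher in 4 of 4 on HFSC in KO, with sums of 200 to 288, 173 to 215, 219 to 444 and 433 to 646 CPM. Of 6 skeletal muscle markers, 0 passed on chow and 2 had an unadjusted p under 0.05, and 4 of the 6 were called higher in KO when chow flox replicate 4 was left out. Myh7, the slow myosin heavy chain, was lower on HFSC in both genotypes, at -4.32 ± 0.47 in KO (adjusted p = 0.000649) and -3.42 ± 0.40 in flox (adjusted p = 0.00273). It stood at 2410 to 3417 CPM in the 6 chow libraries and 106 to 548 CPM in the 7 HFSC libraries, so that the diet groups also differ in this fibre marker. Mylpf was higher on HFSC in KO (0.68 ± 0.21, adjusted p = 0.0347). The part of any of these cell types in the class II results was not tested.

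**Figure D4:**
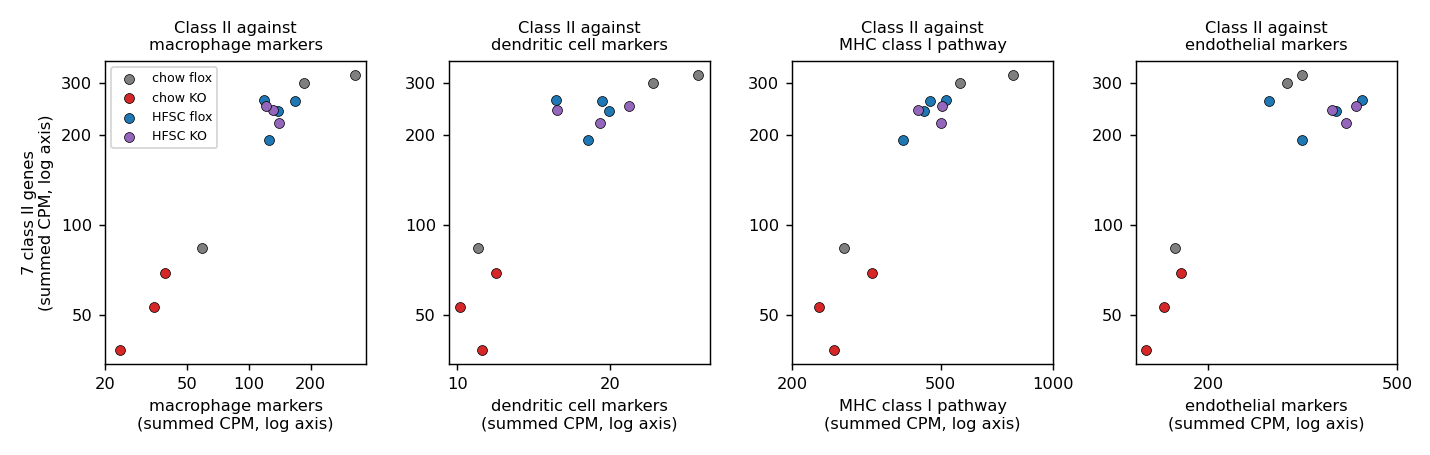
Summed CPM of the 7 class II genes (y axis, log) against summed CPM of macrophage markers, dendritic cell markers, MHC class I pathway genes and endothelial markers (x axes, log), with 1 point a library coloured by group. The chow KO libraries (38.0 to 69.1 CPM of class II) and chow flox replicate 4 (83.8 CPM) lie at the lower left of each panel, and the HFSC groups overlap.

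Across the 13 libraries each class II gene followed the mean of the others, with Pearson's r from 0.904 for Ciita to 0.994 for H2-Ab1, a description of points that share libraries and depth. Among 12176 genes ranked by likeness of log2 CPM to the mean profile of the 7, the closest were Kctd17 (r = 0.988), Flna (0.988), Crtap (0.987), Adamts2 (0.983), Ptms (0.983), Lgals9 (0.982), Tmsb10 (0.981) and Ly6e (0.98). Without the 2 libraries farthest from the median, chow KO replicates 2 and 3, these values were 0.962 to 0.978. For Ciita alone the closest were Cd72 (0.986), Lgals3bp (0.977) and Hpgds (0.966), none of which is among the 8 closest to the mean profile. For H2-Ab1 alone they were Kctd17 (0.99), Tmsb10 (0.987) and Farp1 (0.987).

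Placed among all tested genes by log2 fold change, the class II genes lay near the ends in the contrasts that involve chow KO. For KO against flox on chow H2-Aa was at percentile 3.23, H2-Ab1 at 3.49, H2-Eb1 at 3.58 and Cd74 at 3.74. Ciita was at 6.12, H2-DMb1 at 6.27 and H2-DMa at 10.5. Leaving out chow flox replicate 4, these percentiles ran from 3.46 for H2-Aa to 9.89 for H2-DMa. For HFSC against chow in KO the chains and Cd74 were at 97.4 to 98.6, H2-DMb1 at 92.7, H2-DMa at 89.6 and Ciita at 84.9. In both contrasts the percentiles of the editor subunits and of Ciita were nearer the middle than those of the chains and Cd74.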

How the data were processed

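Per the labels, polyA-selected RNA of 13 mouse skeletal muscle samples was sequenced. The authors deposited raw read counts per Ensembl gene, made with Trimmomatic 0.36, STAR 2.5.2b and featureCounts (Subread 1.5.2) on GRCm38, per the submitters' processing notes. Annotation release, strand setting and handling of multiply aligned reads: not given in the sources used here. Symbols, coordinates and exon lengths came from GENCODE M21 (49056 of 49315 identifiers had a symbol). Groups were assigned from the genotype and diet labels.

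Counts were tested with edgeR 4.0.16 (R 4.3.3): quasi-likelihood F test, robust, TMM scaling, filterByExpr (16496 genes), all 13 libraries in 1 model of 4 group means, Benjamini-Hochberg over all tested genes, threshold 0.05. SE was taken as the log2 fold change divided by the root of its F. The 95% intervals use a normal approximation with this SE and are somewhat narrower than the F test would give. CPM (counts scaled to a common library size) use TMM (trimmed mean of M values) library sizes. Log2 CPM for likeness used a prior count of 2 and genes of at least 1 CPM. Ratios were tested by exact permutation in scipy 1.17.1. The fit was tested on simulated counts. Alternatives used DESeq2 1.42.0, limma 3.58.1, other scalings, no filter, a replicate block, fewer groups and leaving out each library. Leaving libraries out of the other lists and of the ratios, and the dendritic sum without Zbtb46, were added after the data were seen.

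The members and lists were chosen with earlier results of these data known. From each of the 16 other lists up to 4 genes a contrast with the smallest p among those passing may be named, or up to 2 where 0 pass, plus H2-DMb2, H2-Ea-ps and Ptprc, and the 8 genes most like the mean profile, with 3 each for Ciita and H2-Ab1. Irf1, Flt3, Ccr7, Ms4a1, Cd3g, Brd2, Dexi and the levels of Creb1 were named after their values were seen. Replicates were compared over genes reaching 20 summed counts: the 15 pairs gave a chi-square of 10.5 to 193 per degree of freedom, so no library was counted as a repeat. Floors reflect counting error alone, because no molecular identifiers are described.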

Additional observations from a re-analysis of the deposited data

How the results depend on the processing

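The 4 contrasts of a pair of groups and the interaction were refitted under every alternative, except that the interaction cannot be fitted with only 2 groups. For KO against flox on chow, 141 gene values under alternatives held 94 with the same call, 43 no longer past the threshold, 4 newly past it and 0 of opposite sign. The number of the 7 genes called fell from 6 to 0 with only the 2 groups compared, and was 0 to 7 when a library was left out. For HFSC against chow in KO, 20 of 141 values were no longer past the threshold, 2 were newly so and 0 changed sign. For HFSC against chow in flox, 26 of 141 values changed sign and limma voom called 1 gene, Ciita. For the interaction, DESeq2 called 4 of the 7, limma voom 7, and leaving out a library gave 0 to 7. The cause of these changes was not tested.

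Signs turned for HFSC against chow in flox with library totals in H2-Aa (-0.17), H2-Ab1 (-0.26), H2-DMb1 (-0.23) and Cd74 (-0.17), with limma voom in H2-Aa (-0.26), H2-Ab1 (-0.33), H2-DMb1 (-0.10) and Cd74 (-0.32), without the low-count filter in H2-Ab1 (-0.0075) and with only the 2 groups in H2-Ab1 (-0.0096). Leaving out a library gave ranges of -0.32 to 0.38 for H2-Aa, -0.42 to 0.33 for H2-Ab1, -0.46 to 0.27 for H2-Eb1, -0.43 to 0.37 for H2-DMa, -0.39 to 0.60 for H2-DMb1, -0.30 to 0.34 for Cd74 and -0.73 to 0.016 for Ciita. For KO against flox on HFSC the ranges were -0.044 to 0.068 for H2-Ab1, -0.031 to 0.13 for H2-Eb1, -0.028 to 0.21 for H2-DMa and -0.25 to 0.025 for Cd74.

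The replicate numbers were taken as a block in 1 fit, although same-numbered samples of different groups did not deviate together (r from -0.341 to 0.109 over 16 pairs, 1 of them over 0.1). With the replicate block 0 of the 7 genes and 0 of all genes passed for KO against flox on chow, 5 of the 7 for HFSC against chow in KO, and H2-DMa turned to 0.072 for HFSC against chow in flox.

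Over all genes, calls for KO against flox on chow went from 1898 to 3093 with library totals, 3256 with DESeq2, 9899 with limma voom, 2 with only the 2 groups and 0 to 7261 without a library. For KO against flox on HFSC they went from 3 to 0 with library totals, the block or only the 2 groups, 165 with DESeq2, 33 with limma voom, 22 without the filter and 0 to 20 without a library. For HFSC against chow in flox they went from 69 to 392 with DESeq2, 4176 with limma voom, 4 with only the 2 groups and 15 to 1456 without a library. For HFSC against chow in KO they went from 4201 to 7160 with limma voom, 2382 with the block and 1459 to 6112 without a library. For the interaction they went from 0 to 2025 with DESeq2, 7098 with limma voom, 161 without the filter and 0 to 5928 without a library. With library totals the median of all genes was -0.35 on chow, -0.16 in flox, 0.21 in KO and 0.37 in the interaction. The share of calls that were higher went from 58.5% to 69.7% for HFSC in KO and from 27.5% to 16.1% for HFSC in flox. Counts of 22 to 62 reads in chow KO limit H2-DMa, H2-DMb1 and Ciita.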
